A study of Danio rerio with 6 samples.

Results

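The genes described here mark macrophages or leukocytes in general. They are 10 symbols, the macrophage genes *mpeg1*, *csf1ra*, *marco* and *mfap4* and the pan-leukocyte genes *ptprc*, *lcp1*, *coro1a*, *laptm5*, *plek* and *fermt3b*, and were taken from the table by name. In the table of 32057 zebrafish genes they occupied 12 rows, 6 in each group, because 3 tandem duplicates share the symbol *mpeg1*. These 3 rows were kept apart by identifier and are called *mpeg1.1*, *mpeg1.2* and *mpeg1.3* after the duplicate number in the table's description.

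The RNA came from EGFP+ cells that had been sorted at 28 hours postfertilization (hpf) out of zebrafish embryos carrying Tg(*fli1a*:EGFP). That stage is the one in the study's text, and legends of its figures give a slightly earlier one for RNA-seq values. A control morpholino (control MO) was compared with a splice-modifying *nlrc3* morpholino (*nlrc3* MO), each injected at the one-cell stage and each with 3 samples. All 6 samples carried the same transgene, in which the promoter of *fli1a* drives EGFP in endothelium and in other cells that use it, so the sort was not a macrophage sort. The *nlrc3* MO was injected at a higher concentration than the control MO. The study calls the 3 samples of a group biological replicates, but nothing in the labels says that they came from separate clutches. The spread between samples may therefore be technical.

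Macrophages arise early in the zebrafish embryo, first from myeloid precursors of the anterior lateral mesoderm. They engulf microbes and dying cells, and they depend on the receptor tyrosine kinase Csf1r and its ligands. The pan-leukocyte genes encode proteins that nearly all white blood cells use to move and to signal, namely actin-bundling and actin-binding proteins, an integrin activator, a kinase substrate, a receptor phosphatase and a lysosomal membrane protein. Several of them are shared with other blood lineages, thrombocytes among them, and *csf1ra* is also used by the yellow pigment cells of the fish, the xanthophores.

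Values are FPKM, a read number scaled by transcript length and by the library's reads. Read depth is unknown. Fold changes are *nlrc3* MO over control MO on the log2(FPKM + 0.1) scale, which understates changes of genes near 0, and come from limma fitted over the 15155 genes that reached 0.5 FPKM in 3 or more samples, with Benjamini-Hochberg adjustment over those genes. Called means an adjusted p under 0.05 together with a fold change above 2 or below 0.5. With 3 samples a side the exact permutation test has a smallest p of 0.1, so for single values the text says whether the groups overlap.

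The libraries differed in more than these genes. *nlrc3*, the target, was at 0.70 to 1.09 FPKM in control MO and 0.15 to 0.26 in *nlrc3* MO. The 14 globin genes took 15.6 to 15.7% of all FPKM in control MO and 34.5 to 34.8% in *nlrc3* MO, and a list of 8 neural crest genes summed to 509.61 to 527.08 FPKM against 8.46 to 10.06. *fli1a* itself was at 201.49 to 206.75 FPKM in control MO and 88.1 to 94.11 in *nlrc3* MO, and of 16 endothelial genes 0 were called higher and 3 lower, beside 20.4% of all tested genes called lower. Lists of muscle and epidermal genes had 0 calls, and of 5 tested neural genes 0 were called higher and 2 lower. The part of these differences in the results on macrophage and leukocyte genes was not tested.

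Most macrophage and pan-leukocyte genes were higher in *nlrc3* MO. Of the 12 rows, 11 passed the filter on low values, 8 were called higher and 1, *mpeg1.2*, was called lower, where 4.89% of all tested genes were called higher and 20.4% lower. *plek* and *fermt3b* also rose with adjusted p under 0.05 but stayed under the fold limit, which made 10 rows higher at that p against 20.2% of tested genes (limma, Benjamini-Hochberg). In 10 rows all 3 *nlrc3* MO samples lay above all 3 control MO samples, a separation seen in 22.8% of tested genes. *marco* passed the filter only through *nlrc3* MO and *mpeg1.2* only through control MO, so both had to differ. Of the 9 rows above 0.5 FPKM in all 6 samples, 7 were called higher and 0 lower, with fold changes between 1.49 and 3.57 over the 9. Their median log2 fold change was 1.52, beside -0.22 over all tested genes.

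Summed over the 12 rows, the level was 121.51, 119.79 and 118.09 FPKM in control MO and 374.3, 364.69 and 355.69 FPKM in *nlrc3* MO. The sum was 3.05 times as high, and its share of all FPKM went from 0.0225 to 0.0232% in control MO to 0.0522 to 0.0545% in *nlrc3* MO. In bulk RNA of sorted cells, more leukocytes among the cells and more of these transcripts per leukocyte cannot be told apart.

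**Figure D1:**
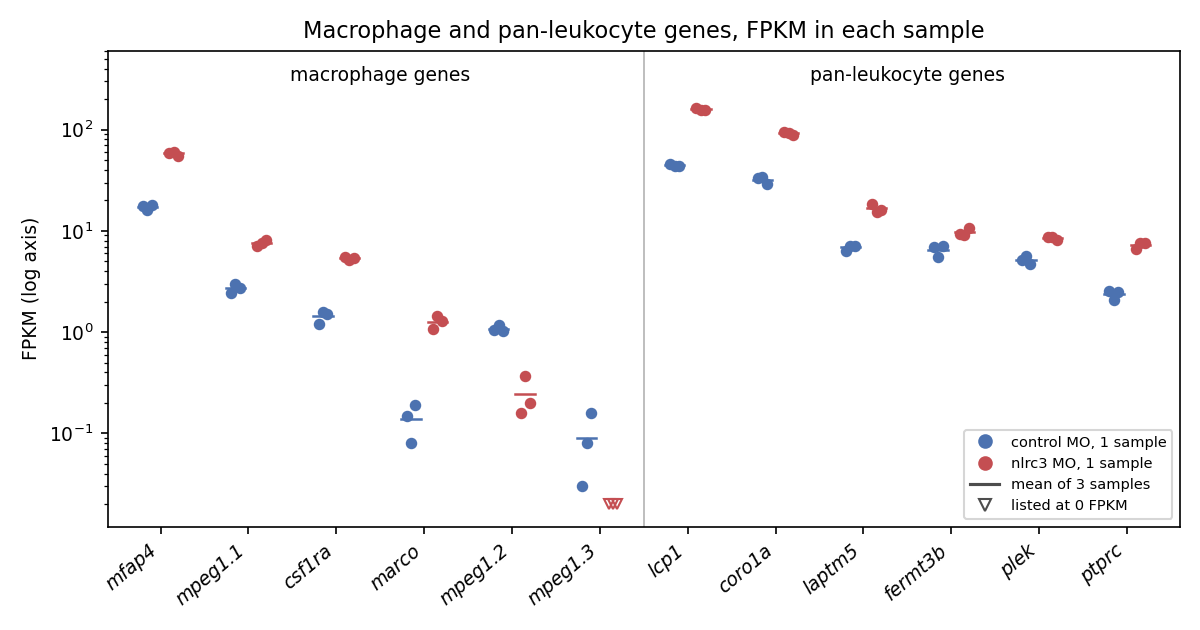
FPKM (log axis) of the 12 rows in each of the 3 control MO and 3 *nlrc3* MO samples, with the mean of each group as a line and open triangles for values listed at 0. Red points lie above blue ones in 10 rows and below them for *mpeg1.2* and *mpeg1.3*.

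*mfap4* (ENSDARG00000090783), which encodes a secreted fibrinogen-domain protein and serves in zebrafish as a macrophage marker, was the most abundant macrophage gene. It was at 17.49, 15.91 and 18.09 FPKM in control MO and 59.21, 60.6 and 54.72 FPKM in *nlrc3* MO. The groups lay far apart, with means of 17.2 ± 1.1 and 58.2 ± 3.1 (SD, n = 3 each). The log2 fold change was 1.76 with a standard error of 0.062 (limma, adjusted p = 3.18e-07). In stained whole embryos the study reported the opposite direction after loss of *nlrc3*. It described less *mfap4* and less of the neutrophil gene *mpx* at earlier stages, and a reduced Tg(*mpeg*:GFP) macrophage signal at a later one. Later still, it described less *mpx* and less *l-plastin*, which is the member *lcp1*, by staining. By qPCR of mutants, also later, it reported lower myeloid genes, with *l-plastin*, *lyz*, *pu.1*, *ikaros* and *csf1a* measured. In the sorted cells described here *csf1a* was lower in *nlrc3* MO. *lcp1*, *lyz*, the Pu.1 genes *spi1a* and *spi1b* and the Ikaros gene *ikzf1* were higher. Those assays differ from sorted-cell sequencing in material and stage, and the difference was not tested.

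*csf1ra* (ENSDARG00000102986) encodes one of the fish's 2 Csf1 receptors. It was at 1.21, 1.59 and 1.5 FPKM in control MO and 5.53, 5.11 and 5.37 FPKM in *nlrc3* MO. Every *nlrc3* MO sample was more than 3 times as high as the highest control MO sample. The log2 fold change was 1.83 with a standard error of 0.13 (limma, adjusted p = 1.47e-05).

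*marco* (ENSDARG00000059294) encodes a scavenger receptor that binds bacteria and particles. It was at 0.15, 0.08 and 0.19 FPKM in control MO, near 0, where unknown read depth leaves values uncertain. In *nlrc3* MO it was at 1.07, 1.44 and 1.3 FPKM. The groups did not overlap. Its log2 fold change of 2.53 had a standard error of 0.30 (limma, adjusted p = 0.000197) and rests on the pseudocount, since with a pseudocount of 1 it was 0.99 and no longer called.

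The *mpeg1* rows went in different directions. The gene encodes Perforin-2, a pore-forming protein of phagocytes, and the promoter of *mpeg1.1* is the one used to label macrophages in fish. *mpeg1.1* (ENSDARG00000055290) was at 2.44, 3 and 2.7 FPKM in control MO and 7.08, 7.66 and 8.11 FPKM in *nlrc3* MO. It was higher in all 3 *nlrc3* MO samples, with a log2 fold change of 1.46 and a standard error of 0.11 (limma, adjusted p = 1.66e-05).

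*mpeg1.2* (ENSDARG00000043093) was at 1.04, 1.18 and 1.02 FPKM in control MO and 0.16, 0.37 and 0.20 FPKM in *nlrc3* MO. Here control MO was the high group and the groups did not overlap. The log2 fold change was -1.83 with a standard error of 0.30 (limma, adjusted p = 0.00123), and -0.75 and not called with a pseudocount of 1. *mpeg1.3* (ENSDARG00000078569) was at 0.03, 0.08 and 0.16 FPKM in control MO, was listed at 0 in all 3 *nlrc3* MO samples and was not tested.

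Within each sample the ratio of *mpeg1.2* to *mpeg1.1* was 0.426, 0.393 and 0.378 in control MO and 0.0226, 0.0483 and 0.0247 in *nlrc3* MO. Such a ratio does not depend on how the libraries are scaled. The duplicates are related in sequence, and reads that match several of them could have been split by the authors' assembly, so the individual levels are uncertain.

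*lcp1* (ENSDARG00000023188), or L-plastin, bundles actin filaments in leukocytes and was the most abundant of the 12 rows in both groups. It was at 45.21, 43.56 and 43.95 FPKM in control MO and 164.27, 155.94 and 154.37 FPKM in *nlrc3* MO. The 3 samples of each group lay close together, and the groups lay far apart. Its log2 fold change of 1.84 had a standard error of 0.034, the smallest among the members (limma, adjusted p = 1.39e-08).

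*coro1a* (ENSDARG00000054610) encodes coronin 1A, which binds actin and the Arp2/3 complex in blood cells. It was at 33.13, 34.00 and 29.04 FPKM in control MO and 93.98, 92.76 and 89.18 FPKM in *nlrc3* MO. Again the groups did not overlap, and the log2 fold change was 1.52 with a standard error of 0.061 (limma, adjusted p = 6.13e-07).

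*ptprc* (ENSDARG00000071437) encodes CD45, the receptor phosphatase that defines leukocytes in flow cytometry. It was at 2.54, 2.07 and 2.48 FPKM in control MO and 6.56, 7.56 and 7.57 FPKM in *nlrc3* MO. All *nlrc3* MO samples were the higher ones, with a log2 fold change of 1.58 and a standard error of 0.12 (limma, adjusted p = 1.67e-05).

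*laptm5* (ENSDARG00000101785) encodes a lysosomal membrane protein of blood cells that, in mammals, sends antigen receptors to degradation. It was at 6.29, 7.16 and 7.08 FPKM in control MO and 18.44, 15.47 and 16.02 FPKM in *nlrc3* MO. The groups did not overlap and the log2 fold change was 1.27 with a standard error of 0.089 (limma, adjusted p = 1.19e-05). When each library was rescaled to the same total it was 0.90, under the fold limit, with an adjusted p of 4.95e-05.

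The smallest changes were those of *plek* and *fermt3b*, both used by thrombocytes as well as by leukocytes. *plek* (ENSDARG00000104325) encodes pleckstrin, a substrate of protein kinase C, and was at 5.10, 5.61 and 4.72 FPKM in control MO and 8.73, 8.62 and 8.11 FPKM in *nlrc3* MO. *fermt3b* (ENSDARG00000030938) encodes kindlin 3, which activates integrins, and was at 6.88, 5.55 and 7.16 FPKM in control MO and 9.27, 9.16 and 10.74 FPKM in *nlrc3* MO. For both genes the *nlrc3* MO samples were the higher ones without overlap.

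The log2 fold change of *plek* was 0.71 with a standard error of 0.088 (limma, adjusted p = 0.000247). That of *fermt3b* was 0.57 with a standard error of 0.12 (limma, adjusted p = 0.00351). With every library rescaled to the same total, *fermt3b* was at 0.20 with an adjusted p of 0.160 and no longer passed, while *plek* was at 0.34 with an adjusted p of 0.00875.

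**Figure D2:**
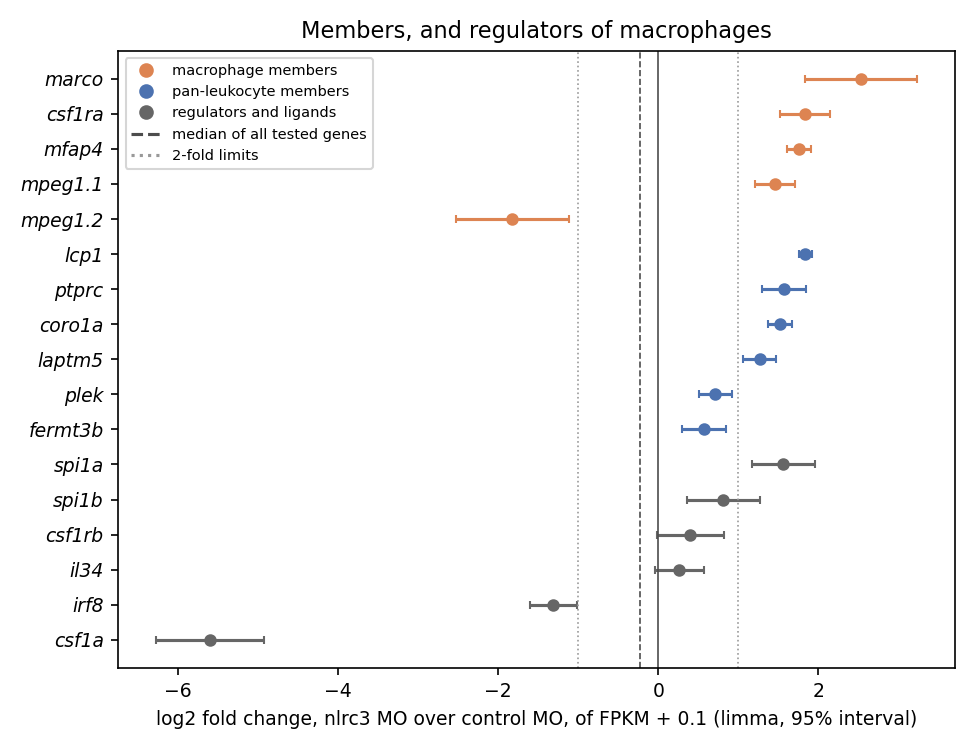
Log2 fold change of FPKM + 0.1, *nlrc3* MO over control MO, with the 95% interval from limma, for the 11 tested members and for 6 regulators, receptors or ligands of macrophages. The dashed line is the median of all tested genes and the dotted lines are the 2-fold limits. *plek* and *fermt3b* lie between 0 and the upper limit, and *mpeg1.2*, *irf8* and *csf1a* lie below the lower limit.

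FPKM are per length, so levels could be ordered across genes, and the order was much the same in both groups. In control MO, *lcp1*, *coro1a* and *mfap4* came first and did not overlap each other. *laptm5* at 6.84 ± 0.48, *fermt3b* at 6.53 ± 0.86 and *plek* at 5.14 ± 0.45 FPKM followed, and their ranges overlapped from 1 neighbour to the next. *mpeg1.1* and *ptprc* overlapped at 2.71 ± 0.28 and 2.36 ± 0.26 FPKM, and below them *csf1ra* at 1.43 ± 0.20 and *mpeg1.2* at 1.08 ± 0.09 FPKM stood apart. *marco* and *mpeg1.3* were last and overlapped (SD, n = 3 throughout).

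In *nlrc3* MO the first 3 were the same. *laptm5* at 16.6 ± 1.6 FPKM now stood apart from *fermt3b* at 9.72 ± 0.88 FPKM. *plek* at 8.49 ± 0.33, *mpeg1.1* at 7.62 ± 0.52 and *ptprc* at 7.23 ± 0.58 FPKM overlapped from 1 to the next. *marco* at 1.27 ± 0.19 FPKM lay above *mpeg1.2* at 0.24 ± 0.11 FPKM, the reverse of their order in control MO (SD, n = 3 each).

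Within a sample, *mfap4*, *csf1ra* and *ptprc* kept about the same ratio to *lcp1*. The ratio of *mfap4* to *lcp1* was 0.387, 0.365 and 0.412 in control MO and 0.360, 0.389 and 0.354 in *nlrc3* MO, which overlap. The ratio of *laptm5* to *lcp1* was 0.139, 0.164 and 0.161 against 0.112, 0.0992 and 0.104, so all 3 *nlrc3* MO samples had the lower ratio. So they did for *mpeg1.1*, whose ratio to *lcp1* had a mean of 0.0614 in control MO and 0.0483 in *nlrc3* MO without overlap.

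Of the 7 members set against *lcp1* in this way, *plek* and *fermt3b* had the largest drop in mean ratio relative to control MO. The ratio of *plek* to *lcp1* was 0.113, 0.129 and 0.107 in control MO and 0.0531, 0.0553 and 0.0525 in *nlrc3* MO. The ratio of *fermt3b* to *lcp1* was 0.152, 0.127 and 0.163 in control MO and 0.0564, 0.0587 and 0.0696 in *nlrc3* MO. Their ratio to each other overlapped between the groups, with means of 0.804 and 0.879. The differences in size of change between members were not tested.

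**Figure D3:**
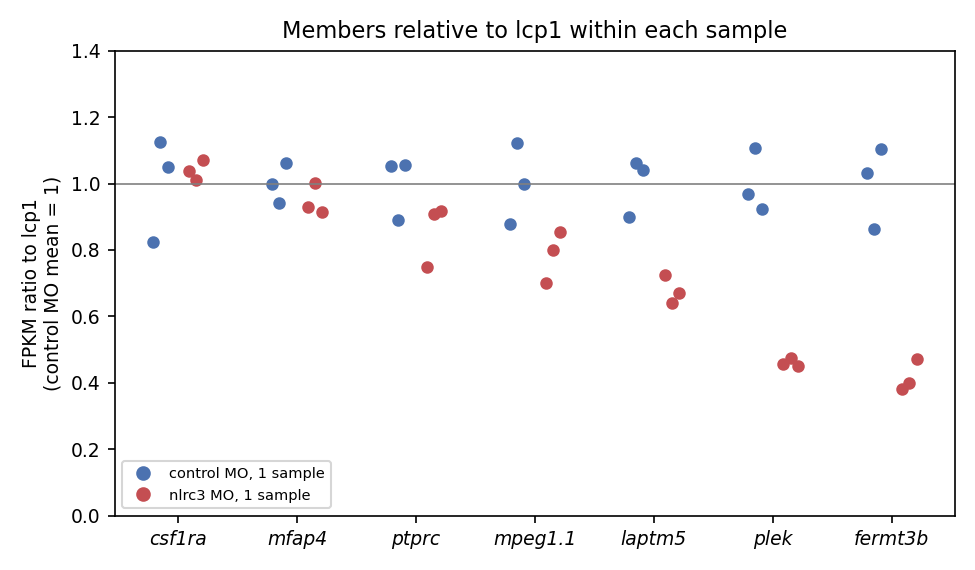
FPKM of 7 members divided by the FPKM of *lcp1* in the same sample, drawn relative to the control MO mean, for the 3 control MO and 3 *nlrc3* MO samples. *csf1ra*, *mfap4* and *ptprc* overlap between the groups, and *mpeg1.1*, *laptm5*, *plek* and *fermt3b* are lower in *nlrc3* MO without overlap.

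The other genes of the Csf1 pathway did not follow *csf1ra*. Of the 5 genes, 2 receptors and 3 ligands, 1 (*csf1ra*) was called higher and 2, the ligands *csf1a* and *csf1b*, were called lower. Over all tested genes 4.89% were called higher and 20.4% lower. *csf1a* was at 12.99, 12 and 12.22 FPKM in control MO and 0.07, 0.29 and 0.16 FPKM in *nlrc3* MO, with a log2 fold change of -5.60 and a standard error of 0.29 (limma, adjusted p = 2.17e-06). *csf1b* was at 4.97, 4.65 and 6.20 FPKM in control MO and was listed at 0 in all 3 *nlrc3* MO samples, so no fold is given. Both ligands passed the filter only through control MO and had to differ. The neural crest list, from whose lineage pigment cells come, moved the same way and its part in these ligand values was not tested.

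The third ligand, *il34*, did not pass the test. It was at 4.31, 4.33 and 4.98 FPKM in control MO and 4.71, 5.33 and 6.42 FPKM in *nlrc3* MO, which overlap (log2 fold change 0.26, limma adjusted p = 0.12, and -0.11 with TPM). The second receptor, *csf1rb*, was at 2.10, 1.89 and 2.34 FPKM against 3.26, 3.09 and 2.20 FPKM and also overlapped (log2 fold change 0.40, limma adjusted p = 0.0843). With median-of-ratios scaling both passed 0.05, at 0.0146 for *il34* and 0.0192 for *csf1rb*, still under the fold limit. The ratio of *csf1ra* to *csf1rb* had a mean of 0.686 in control MO and 1.93 in *nlrc3* MO without overlap.

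Genes of xanthophores, the other known site of *csf1ra*, mostly did not rise. Of 8 such genes 5 were tested. 0 were called higher and 2 were called lower, beside 4.89% and 20.4% of all tested genes. Those called lower were *pax7a* and *pax7b*, transcription factors of that lineage. Both passed the filter only through control MO and had to differ, and of the 3 genes above it in all 6 samples 0 were called in either direction. *gch2*, an enzyme of pteridine synthesis, was at 4.51 ± 0.47 and 4.5 ± 0.5 FPKM (SD, n = 3 each). *pts*, an enzyme of the same route, was at 2.78 ± 0.30 FPKM in control MO and 1.70 ± 0.37 FPKM in *nlrc3* MO (log2 fold change -0.69, limma adjusted p = 0.0137). *aox5*, an oxidase of the same cells, was under the filter at 0.24 ± 0.09 FPKM in control MO and 0.68 ± 0.20 FPKM in *nlrc3* MO, and was called higher when no filter was applied.

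Of 26 other genes that mark or specify macrophages 25 were in the table and 18 were tested. 8 were called higher and 1 lower, beside 4.89% and 20.4% of all tested genes. The median log2 fold change of the 18 was 0.77, beside -0.22 over all tested genes. *p2ry12* and *grna*, 2 of those called higher, passed the filter only through *nlrc3* MO and had to differ. Of the 16 above the filter in all 6 samples, 6 were called higher and 1 lower, with a median of 0.61. By mean over the 6 samples the 4 most abundant were *apoeb*, *lgmn*, *mafbb* and *hexb*. *apoeb*, an apolipoprotein made by tissue macrophages and other embryonic cells, rose from 40.7 ± 2.7 to 101 ± 4 FPKM (SD, n = 3 each, log2 fold change 1.31). *hexb*, a lysosomal enzyme, had a log2 fold change of 0.73 (limma, adjusted p = 1.75e-05) under the fold limit. *lgmn*, a lysosomal protease, and *mafbb*, a transcription factor, overlapped between the groups at log2 fold changes of -0.0056 and -0.053, and both are used well beyond macrophages.

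The gene called lower was *irf8*, the transcription factor that zebrafish macrophages need to form. It was at 7.60, 6.88 and 8.28 FPKM in control MO and 3.46, 2.65 and 2.90 FPKM in *nlrc3* MO. Every *nlrc3* MO sample was the lower one, opposite to *mfap4*, *csf1ra* and *mpeg1.1* in the same samples. The log2 fold change was -1.31 with a standard error of 0.13 (limma, adjusted p = 6.33e-05), and it was called lower under all 4 scalings tried.

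Within a sample the ratio of *mpeg1.1* to *irf8* was 0.321, 0.436 and 0.326 in control MO and 2.05, 2.89 and 2.80 in *nlrc3* MO. *spi1a* and *spi1b*, which encode the myeloid transcription factor Pu.1, were picked with their values in view. *spi1a* was at 1.73, 2.46 and 2.59 FPKM in control MO and 6.08, 6.91 and 7.40 FPKM in *nlrc3* MO, and was called higher (log2 fold change 1.56, limma adjusted p = 0.000114). *spi1b* was at 7.29, 5.83 and 4.65 FPKM against 12.98, 8.85 and 9.5 FPKM, without overlap but under the fold limit (log2 fold change 0.81, limma adjusted p = 0.00768). With all libraries at the same total the adjusted p of *spi1b* was 0.0724, and with median-of-ratios scaling it was called higher.

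Of 34 other genes shared by leukocytes 30 symbols were in the table, in 31 rows, of which 28 were tested. 13 rows were called higher and 1 lower, beside 4.89% and 20.4% of all tested genes. 22 had an adjusted p under 0.05 and a higher level in *nlrc3* MO, beside 20.2% of all tested genes. The median log2 fold change was 0.93, beside -0.22 over all tested genes. By mean over the 6 samples, which gives more weight to genes that rose, the 4 most abundant were *arpc1b*, an Arp2/3 subunit, *ikzf1*, the Ikaros transcription factor, *fcer1gl*, an Fc receptor signalling chain, and *btk*, a tyrosine kinase, with log2 fold changes of 0.77, 0.58, 1.52 and 0.76. Of these 4 *fcer1gl* was called higher, and the other 3 had adjusted p under 0.05 but missed the fold limit. The count depends on scaling, since with all libraries at the same total 4 rows were called higher. Over all 15155 tested genes 295 were called higher under that scaling.

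The 1 leukocyte gene called lower was *lsp1*, which encodes an actin-binding protein of leukocytes and in control MO was about as abundant as *arpc1b*, the highest of that list. It was at 38.93, 38.79 and 39.30 FPKM in control MO and 2.11, 2.02 and 1.34 FPKM in *nlrc3* MO. Its direction was opposite to that of *lcp1* and *coro1a*, with a log2 fold change of -4.37 (limma, adjusted p = 3.32e-07).

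Genes of other blood lineages were also mostly higher. List sums were 1.98 times as high for neutrophil, 1.62 times for thrombocyte and 2.86 times for erythroid genes, beside 3.05 times for the members. The wider lists rose less than these, with sums 1.41 times as high for the other macrophage genes and 1.48 times for the other leukocyte genes. Of 11 tested rows of neutrophil genes 8 were called higher and 1 lower, beside 4.89% and 20.4% of all tested genes. At adjusted p under 0.05 with no fold limit 9 were higher and 2 lower, beside 3062 and 6496 of all 15155 tested genes. The median log2 fold change of the 11 rows was 1.07. The whole list summed to 557.3 to 567.76 FPKM in control MO and 1108.2 to 1117.78 FPKM in *nlrc3* MO. *lyz*, the lysozyme of granulocytes, *npsn*, a neutrophil protease, *srgn*, a granule proteoglycan, and *mpx*, myeloperoxidase, had log2 fold changes of 1.05, 1.18, 1.07 and 1.23, and all 4 were called higher. The gene called lower was *adam8a*, a membrane metalloprotease, with a log2 fold change of -1.27. The receptors *cxcr1* and *cxcr2*, which neutrophils use, were at or under 0.30 FPKM in all 6 samples. The part of neutrophils in the pan-leukocyte values was not tested. With all libraries at the same total 1 neutrophil row was called higher and 2 were called lower. Under that scaling 295 of all 15155 tested genes were called higher and 4620 lower.

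The ratio of *lcp1* to *mpx* was 1.59, 1.47 and 1.55 in control MO and 2.31, 2.32 and 2.39 in *nlrc3* MO. The ratio of *mfap4* to *mpx* rose likewise from a mean of 0.596 to 0.861 without overlap. *mpeg1.1* did not separate from *mpx*, with ratios of 0.0856 to 0.101 in control MO and 0.0994 to 0.126 in *nlrc3* MO.

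Of 8 tested rows of thrombocyte genes 4 were called higher and 2 lower, beside 4.89% and 20.4% of all tested genes. The whole list summed to 205.51 to 209.11 FPKM in control MO and 332.13 to 339.41 FPKM in *nlrc3* MO. By mean over the 6 samples the 4 highest were *gfi1b*, a repressor of blood progenitors, *gp1bb* and *gp9*, subunits of the von Willebrand factor receptor, and *nfe2*, a transcription factor shared with erythroid cells. Their log2 fold changes were 0.64 for *gfi1b*, 1.23 for *gp1bb*, 1.08 for *gp9* and 1.57 for *nfe2*, of which the first missed the fold limit. The 2 called lower were *thbs1b*, a matrix glycoprotein, and *selp*, which encodes P-selectin. *thbs1b* was at 36.7 ± 1.2 FPKM in control MO, second in the list there, and 1.98 ± 0.12 FPKM in *nlrc3* MO (SD, n = 3 each). *selp* passed the filter only through control MO, and 1 gene was left as called lower in 5 of the 6 fits that left out a sample, *nlrc3* MO replicate 3 being the exception, and also with the replicate block, a pseudocount of 1, the filter at 1 FPKM and median-of-ratios scaling. With TPM 2 were called higher and 2 lower, beside 295 and 4620 of all 15155 tested genes.

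*plek* and *fermt3b* were also set against *gp1bb*. The ratio of *fermt3b* to *gp1bb* had a mean of 0.198 in control MO and 0.126 in *nlrc3* MO, and that of *plek* to *gp1bb* a mean of 0.155 and 0.11, both without overlap. Such ratios depend on the thrombocyte gene chosen. Log2 fold changes were 1.23 for *gp1bb*, 1.08 for *gp9* and 1.57 for *nfe2*, but 0.64 for *gfi1b* and 0.32 with overlap for *itga2b*. Those of *plek* and *fermt3b* were 0.71 and 0.57. The part of thrombocytes in the values of *plek* and *fermt3b* was not tested. Of 11 erythroid symbols 9 were matched by name, and all 9 were called higher, beside 4.89% of all tested genes. The globins *hbae1.1* and *hbbe1.1* were not matched, because gene names were listed without the part after the dot. The log2 fold changes of the 9 were 1.04 to 1.63. The globins *hbbe1* and *AL935210*, not counted in that list and named below for their likeness to *lcp1*, had 1.70 and 1.83. Of 9 lymphoid genes 1 passed the filter, and the list summed to at most 0.97 FPKM in control MO and 1.44 FPKM in *nlrc3* MO.

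Genes related to the members, but used mostly outside blood, mostly did not move with them. Of 27 tested rows of such relatives 1 was called higher and 13 were called lower, beside 4.89% and 20.4% of all tested genes. Those called lower include *mfap2* and *mfap5*, which share with *mfap4* the name microfibril associated protein. Whether they belong to its family was not checked. At adjusted p under 0.05 with no fold limit 5 of the 27 rows were higher and 15 lower. Over all 15155 tested genes 20.2% were higher and 6496 genes were lower at that p. The median log2 fold change of the 27 was -0.88, beside -0.22 over all tested genes. Of the 21 above the filter in all 6 samples, 1 was called higher and 9 lower, with a median of -0.41. The plastin *pls3*, the form of *lcp1* in other tissues, was at 44.32, 45.03 and 44.57 FPKM in control MO and 14.38, 15.80 and 15.43 FPKM in *nlrc3* MO. The ratio of *lcp1* to *pls3* was therefore 1.02, 0.967 and 0.986 in control MO and 11.4, 9.87 and 10 in *nlrc3* MO.

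Among the coronins, *coro1cb* fell with a log2 fold change of -2.36 (limma, adjusted p = 1.19e-07) and *coro1ca* had 0.25, so the ratio of *coro1a* to *coro1ca* rose from a mean of 1.54 to 3.71. The kindlin *fermt2*, which serves integrins outside blood, fell by 1.08 on the log2 scale, and the ratio of *fermt3b* to *fermt2* rose from a mean of 0.732 to 2.33. The lysosomal proteins *laptm4a* and *laptm4b* had log2 fold changes of 0.20 and -0.41, beside 1.27 for *laptm5*.

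Of the receptor kinases related to *csf1ra*, *pdgfra* was at 74.2 ± 0.8 FPKM in control MO and 1.01 ± 0.14 FPKM in *nlrc3* MO, and *kita* at 1.91 ± 0.12 and 0.24 ± 0.18 FPKM (SD, n = 3 each). *colec12*, another scavenger receptor with a collagen-like domain, fell by 1.79 on the log2 scale where *marco* was called higher. The relative called higher was *ptprja*, a receptor phosphatase like *ptprc*, with a log2 fold change of 1.36 (limma, adjusted p = 0.000201).

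**Figure D4:**
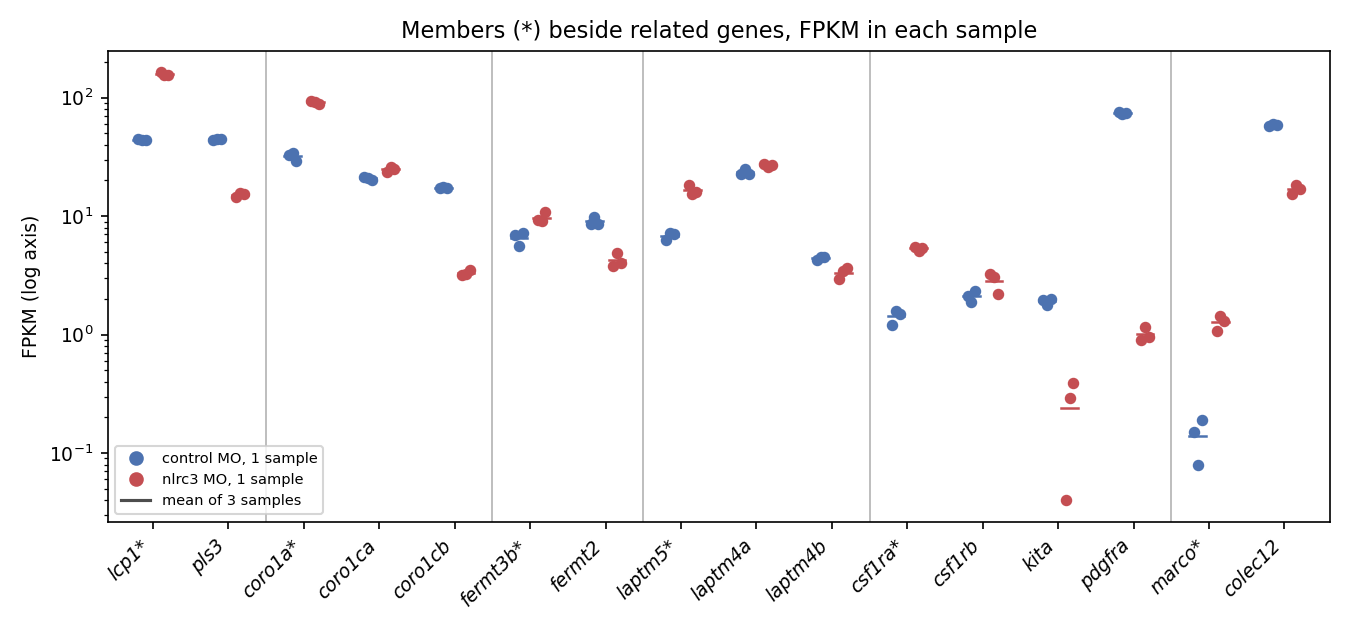
FPKM (log axis) of *lcp1*, *coro1a*, *fermt3b*, *laptm5*, *csf1ra* and *marco*, each marked with an asterisk and set beside related genes, in each of the 3 control MO and 3 *nlrc3* MO samples with group means as lines. *lcp1* and *pls3* are level in control MO and 10.4-fold apart in *nlrc3* MO, and *pdgfra*, *kita* and *colec12* lie lower in *nlrc3* MO.

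The size of each change depends on how the libraries are scaled, because the deposited FPKM sum to 524845.6 to 525566.6 in control MO and 678620.1 to 687386.5 in *nlrc3* MO. Over all tested genes the median log2 fold change was -0.22 as deposited, -0.60 with every library at the same total (TPM), -0.23 with the same total after the globins are left out and -0.013 with median-of-ratios scaling. The share of calls that were higher was 19.3% as deposited, 6% with TPM, 18.8% without globins and 31.7% with median-of-ratios scaling. Such a rescaling moves the members and all other genes together. As deposited, *lcp1* lay 2.06 and *mfap4* 1.98 above that median on the log2 scale.

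All 10 rows that were higher as deposited stayed higher in value under the 4 scalings, and *mpeg1.2* stayed lower. 7 rows were called higher under every one of them, and *laptm5* was called under all but TPM. With TPM, log2 fold changes were 1.46 for *lcp1*, 1.38 for *mfap4*, 1.49 for *csf1ra* and 1.1 for *mpeg1.1*. With median-of-ratios scaling *plek* was at 0.93 and *fermt3b* at 0.79, still under the fold limit.

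**Figure D5:**
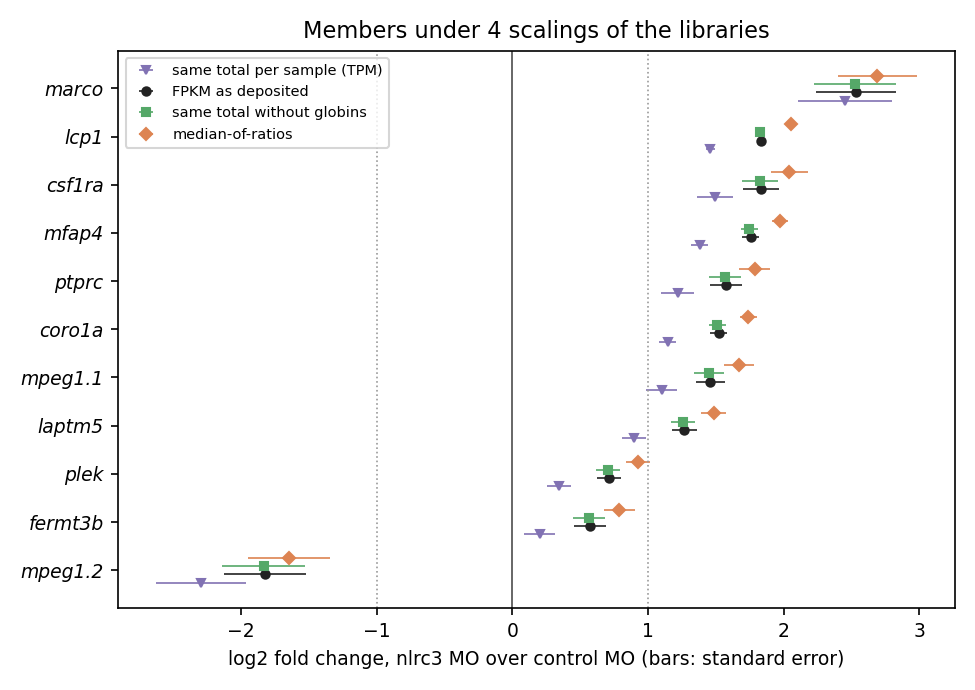
Log2 fold change of the 11 tested members, *nlrc3* MO over control MO, with the standard error as a bar, under 4 scalings of the libraries. TPM gives the lowest and median-of-ratios the highest value for each gene, and no gene crosses 0.

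The genes whose pattern over the 6 samples was most like that of *mfap4* and *lcp1* came from blood and elsewhere. Likeness was the root mean square difference of log2(FPKM + 0.1) after centring each gene, with a median of 1.02 to *mfap4* and 1.05 to *lcp1* over 15154 genes. Nearest to *mfap4* were *apbb1ip*, an adaptor that links Rap1 to integrins in leukocytes, at 0.0661, *lcp1* at 0.0755, the embryonic globin *hbbe1* at 0.0755, *si:ch211-39i2* at 0.0784 and the potassium channel subunit *kcnab1b* at 0.0878. Nearest to *lcp1* were the globin *AL935210* at 0.0374, *hbbe1* at 0.0744, *mfap4* at 0.0755, *kcnab1b* at 0.0794 and *si:ch211-214b16* at 0.0845. With 2 groups of 3 samples this measure reads almost only the size of the difference between the groups.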

How the data were processed

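The data are RNA sequencing of sorted EGFP+ cells, 3 control MO and 3 *nlrc3* MO samples, grouped by the morpholino in the labels. Per the methods, Cutadapt trimmed the reads, HISAT2 aligned these to zebrafish (Ensembl), and StringTie and ballgown gave transcript levels. The deposited table holds 32057 genes in FPKM with 2 decimals. FPKM divide by each library's reads and by transcript length, so a class of abundant transcripts moves the values of all others. The table also holds the authors' fold change, log2 value, p-value, q-value and direction of each gene, which were not used. The control MO columns are headed with a letter S, read as the Standard-MO of the methods.

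log2(FPKM + 0.1) was computed, genes reaching 0.5 FPKM in 3 or more of the 6 samples were kept (15155), and limma 3.58.1 in R 4.3.3 was fitted (lmFit, eBayes with a trend), with Benjamini-Hochberg adjustment over the genes kept. No whole-read steps were seen among low values, so depth is unknown and no count test was run. The members and all gene lists were chosen with earlier results of these data known. All members are named, of the other macrophage and leukocyte, neutrophil, thrombocyte and xanthophore lists the 4 tested genes with the highest mean over the 6 samples, of the relatives any gene of a member's family, and the few genes of a list called in 1 direction. The erythroid, lymphoid, endothelial, neural crest, muscle, epidermis and neural lists were counted or summed. Alternatives were other pseudocounts (1 and 0.01), filters and scalings, no trend, a replicate block, no fold limit and each sample left out. Figures were drawn with matplotlib 3.10.9. No sequences or positions were used.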

Additional observations from a re-analysis of the deposited data

How the results depend on the processing

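The count of members called higher was 8 as reported, and it stayed within 1.5 times of that under all alternatives. With a pseudocount of 1, 0 members were called lower (*marco* 0.99 and *mpeg1.2* -0.75 were no longer called), the median log2 fold change of the tested members was 1.22 and 8 other leukocyte rows were called higher. With TPM the median was 1.14 and *laptm5* at 0.90 was no longer called. With TPM 4 other leukocyte rows were called higher, beside 295 of all 15155 tested genes. With median-of-ratios scaling the median was 1.74. With no fold limit 22 other leukocyte rows were higher and 2 lower, beside 3062 and 6496 of all 15155 tested genes. No member changed direction. Leaving out each sample in turn gave 8 members higher and 1 lower every time and a median between 1.46 and 1.55, with 12 to 14 other leukocyte rows higher. Same-numbered samples did not deviate together (correlations 0.0041, 0.040 and -0.0034). With 3 samples a side these values cannot show whether such samples shared a clutch. The replicate block gave 8 members higher, 1 lower and a median of 1.52. Levels near 0 were those of *marco* in control MO, *mpeg1.2* in *nlrc3* MO and *mpeg1.3* in both groups. They are uncertain, because read depth is unknown and values have 2 decimals.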

Other observations

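Of the phagocyte NADPH oxidase, which makes superoxide in macrophages and neutrophils, 4 subunits are described, and they did not move as a block. They were picked with their values in view. *cybb*, the catalytic subunit, was at 3.94, 3.64 and 3.26 FPKM in control MO and 12.69, 11.93 and 12.06 FPKM in *nlrc3* MO (log2 fold change 1.73, limma adjusted p = 2.17e-06). *ncf4*, a cytosolic subunit, had a log2 fold change of 1.3 and was called higher, and the membrane partner *cyba* had 0.97, just under the fold limit. *ncf1*, the organizing subunit, went the other way at 19.86, 20.01 and 18.96 FPKM in control MO and 18.39, 16.07 and 14.69 FPKM in *nlrc3* MO, without overlap but with a log2 fold change of -0.26 (limma, adjusted p = 0.0254).

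Low macrophage genes, also picked with their values in view, did not all behave alike. *p2ry12*, a purine receptor of microglia, was at 0.27, 0.25 and 0.29 FPKM in control MO and 1.41, 1.2 and 1.54 FPKM in *nlrc3* MO, and *havcr1*, a receptor for dying cells, was at 0.78, 1.09 and 0.84 FPKM against 3.1, 3.06 and 3.26 FPKM. *p2ry12* passed the filter only through *nlrc3* MO and had to differ. *timd4*, another receptor for dying cells, was at 0.69 ± 0.17 and 0.71 ± 0.05 FPKM, and *lgals3bpb*, a secreted lectin-binding protein, at 0.88 ± 0.09 and 1.29 ± 0.27 FPKM (SD, n = 3 each, limma adjusted p = 0.856 and 0.0813). *cd74a* and *cd74b*, chaperones of antigen presentation, were at or under 0.32 FPKM in all 6 samples. The complement genes *c1qa*, *c1qb* and *c1qc*, markers of mature tissue macrophages, were at or under 0.32 FPKM in all 6 samples.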
